A study of Mus musculus with 3 samples.

Results

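Aldh1a3, Gast, Neurog3, Cd81 and Sox4, genes that have been used as marks of beta cells losing their mature identity, were followed cell by cell through 3 RNA-seq libraries of mouse islets. They are 5 of the 32285 genes listed in the deposited count matrices, and they were picked with measured levels of these libraries already in view. Their levels are therefore a description of the libraries, and no test was run on them. The libraries came from mice 9 months old labelled WT, ASF-KO or SC35-KO, with 1 library per genotype and no treatment named. ASF and SC35 are older names of the splicing factors SRSF1 and SRSF2, both named in the title of the study. The labels do not say which cells carry the deletion, which exons were removed, the strain or sex, or how many animals were pooled. All 3 libraries were made from islets freed with collagenase, picked by hand and dispersed with trypsin, and were prepared with the Chromium 3' v3 chemistry. Every interval given is a 95% interval that covers counting error only, and differences between animals of a genotype cannot be seen with 1 library each. Intervals of summed UMIs and of their ratios also leave out the spread between cells.

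Mature beta cells make insulin under transcription factors such as Mafa, Pdx1 and Nkx6-1. In diabetic mice, beta cells can lose insulin and these factors and switch on genes of other stages, a change called dedifferentiation. Aldh1a3 encodes an aldehyde dehydrogenase that oxidises retinal to retinoic acid, and it is among the best known marks of such cells. Gast encodes gastrin, a stomach hormone that the fetal pancreas also makes. Neurog3 is the basic helix-loop-helix factor that commits pancreatic progenitors to the endocrine lineage, and Sox4 is an HMG-box factor of the same developmental stage. Cd81 encodes a tetraspanin, a membrane protein with 4 passes, and has been described as a surface mark of immature and stressed beta cells.

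After filters and removal of doublets, 8949 cells of the WT library, 7132 of the library labelled ASF-KO and 10787 of the library labelled SC35-KO were kept, with medians of 14298, 17093.5 and 9871 UMIs (unique molecular identifiers, 1 per captured transcript). The filter removed 9.53%, 40.8% and 16.1% of the deposited barcodes, so the library labelled ASF-KO stood apart in its share of poor barcodes. Kept libraries shared 11 to 28 barcode sequences with each other. The targeted genes did not single out their libraries. Srsf1 was at 38.4 UMIs per 1000000 UMIs of the class (CPM) in WT beta-gated cells, at 37.2 under the label ASF-KO and at 40.1 under SC35-KO, and Srsf2 was at 27.6, 54.2 and 26.6 CPM. Reads near the 3' end need not fall in a deleted exon, so these values check nothing about the deletions, and each library is called by its label.

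Cells were classed by the share of their UMIs that a hormone holds. Beta-gated cells, with at least 30% insulin (Ins1 plus Ins2) and no other hormone at 5%, numbered 4785, 3948 and 5064 in the WT, ASF-KO and SC35-KO libraries. All 10 beta markers checked were at or above 10 CPM in them in every library. Their depth differed, with medians of 22469, 26828 and 17394 UMIs per cell. So did their insulin, with medians of 53%, 63.5% and 63.0% of UMIs. Because insulin takes a larger share of UMIs in both KO libraries, most other genes have lower CPM there: the median gene stood at 0.745 times its WT level under ASF-KO and at 0.740 times under SC35-KO. Ratios are given as measured and relative to this median gene, and a gene is called higher or lower when it lies at least 1.5-fold from the median gene.

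Aldh1a3 (ENSMUSG00000015134, chr7:66390890-66427517, minus strand, GRCm38) was the member that differed most between libraries. In beta-gated cells it stood at 2.10 CPM in WT (1.84 to 2.39, 231 UMIs), at 18.7 CPM under ASF-KO (17.9 to 19.6, 2081 UMIs) and at 16.4 CPM under SC35-KO (15.6 to 17.3, 1511 UMIs). Both KO libraries were high and the WT library was low, with no overlap of the intervals. The ratios to WT were 8.91 (7.77 to 10.2) and 7.80 (6.79 to 9.00), or 12.0 and 10.5 relative to the median gene. Aldh1a3 lay above 99.97% of the genes measured in both comparisons, a place that the choice of the gene fixed in part. The filter fixed it in part as well. A gene counts as measured at 10 CPM in either sum, and Aldh1a3 reached that level only in the KO libraries, where it is high. The libraries labelled ASF-KO and SC35-KO differed little from each other for this gene, with a ratio of SC35-KO to ASF-KO of 0.876 (0.819 to 0.936). A few cells did not carry these levels: without the 3 highest cells of each library Aldh1a3 stood at 1.99, 18.1 and 16.15 CPM.

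Of the 5 genes, 2 were called higher under ASF-KO (Aldh1a3 and Gast), against 9% of all 6570 genes measured in beta-gated cells, and 1 was called lower (Sox4), against 8.08%. Under SC35-KO, 3 were called higher (Aldh1a3, Gast and Neurog3), against 3.49% of 6527 genes, and 1 was called lower (Sox4), against 2.59%. Gast and Neurog3 were below 10 CPM in every beta sum, the level used to count a gene as measured, so their calls rest on few UMIs. Since the genes were chosen with these contrasts known, nothing is read from the shares.

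**Figure D1:**
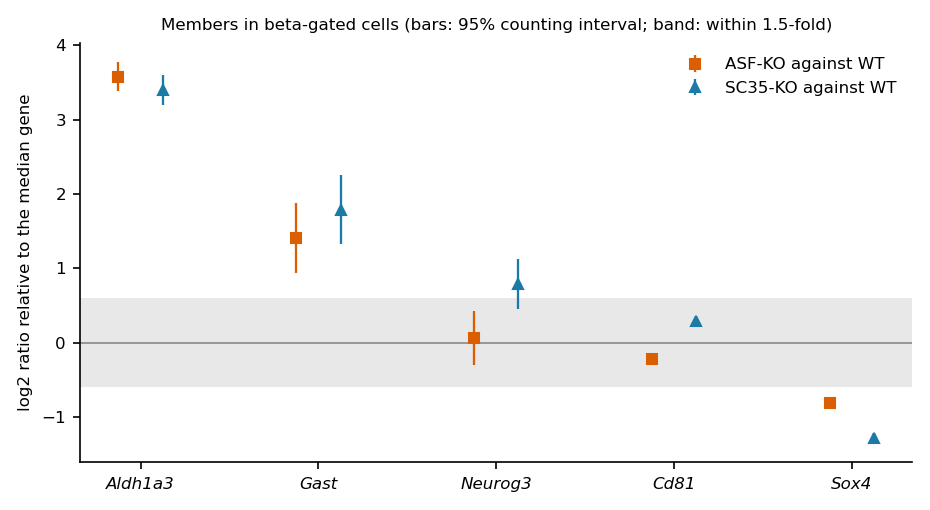
Ratio of each KO-labelled library to WT in beta-gated cells for the 5 genes, as log2 relative to the median gene (y axis). Bars are 95% counting intervals and the grey band marks less than 1.5-fold. Aldh1a3 and Gast lie above the band in both libraries, Neurog3 above it only in the library labelled SC35-KO, Cd81 inside it and Sox4 below it in both.

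By CPM, the class of cells with the most Aldh1a3 was not the same in every library. In WT, gamma-gated cells (0.434 CPM) and alpha-gated cells (0.562 CPM, 0.226 to 1.16) held less than beta-gated cells. Delta-gated cells (5.12 CPM, 3.21 to 7.75) and low-hormone endocrine cells (6.25 CPM, 3.496 to 10.3) held more by summed CPM. The WT low-hormone value rested on 15 UMIs in 6 cells, with 7 of these UMIs in the highest cell. Thinned to 2000 UMIs per cell, 0 of 546 delta-gated and 0 of 185 low-hormone WT cells had a UMI, against 19 of 4750 beta-gated cells. The higher WT level of these classes was therefore not seen in the thinned shares. Under ASF-KO, beta-gated cells at 18.7 CPM and delta-gated cells at 17.4 CPM (13.5 to 22.1) overlapped, and alpha-gated cells stood at 2.31 CPM (1.56 to 3.29). Low-hormone endocrine cells of that library, at 15.15 CPM (7.83 to 26.5) on 12 UMIs, also overlapped beta-gated cells. Under SC35-KO, beta-gated cells were highest, low-hormone endocrine cells followed at 15.02 CPM with an interval that overlapped theirs (8.59 to 24.4), and delta-gated cells stood at 7.66 CPM (5.63 to 10.2). Delta cells make somatostatin, alpha cells glucagon and gamma cells pancreatic polypeptide. The low-hormone endocrine cells carry granins and prohormone convertases but no hormone at its gate.

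Aldh1a3 in delta-gated cells separated the KO libraries. Its ratio to WT was 3.4 (2.08 to 5.78, 68 against 22 UMIs) under ASF-KO. It was 1.496 (0.884 to 2.61, 47 UMIs) under SC35-KO, an interval that holds 1, and SC35-KO to ASF-KO gave 0.440 (0.297 to 0.647). In alpha-gated cells the gene was at 7, 30 and 40 UMIs in all, which gives ratios to WT of 4.11 (1.77 to 11.1) and 3.58 (1.58 to 9.46) at levels of at most 2.31 CPM. In endothelial cells, which serve as a reading of free RNA, Aldh1a3 stood at 2.39, 2.67 and 6.35 CPM on 5, 4 and 7 UMIs. The WT beta level of 2.10 CPM lies within the endothelial interval of its library (0.774 to 5.57), while the KO beta levels are above the endothelial intervals of their libraries (0.729 to 6.85 and 2.55 to 13.1).

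**Figure D2:**
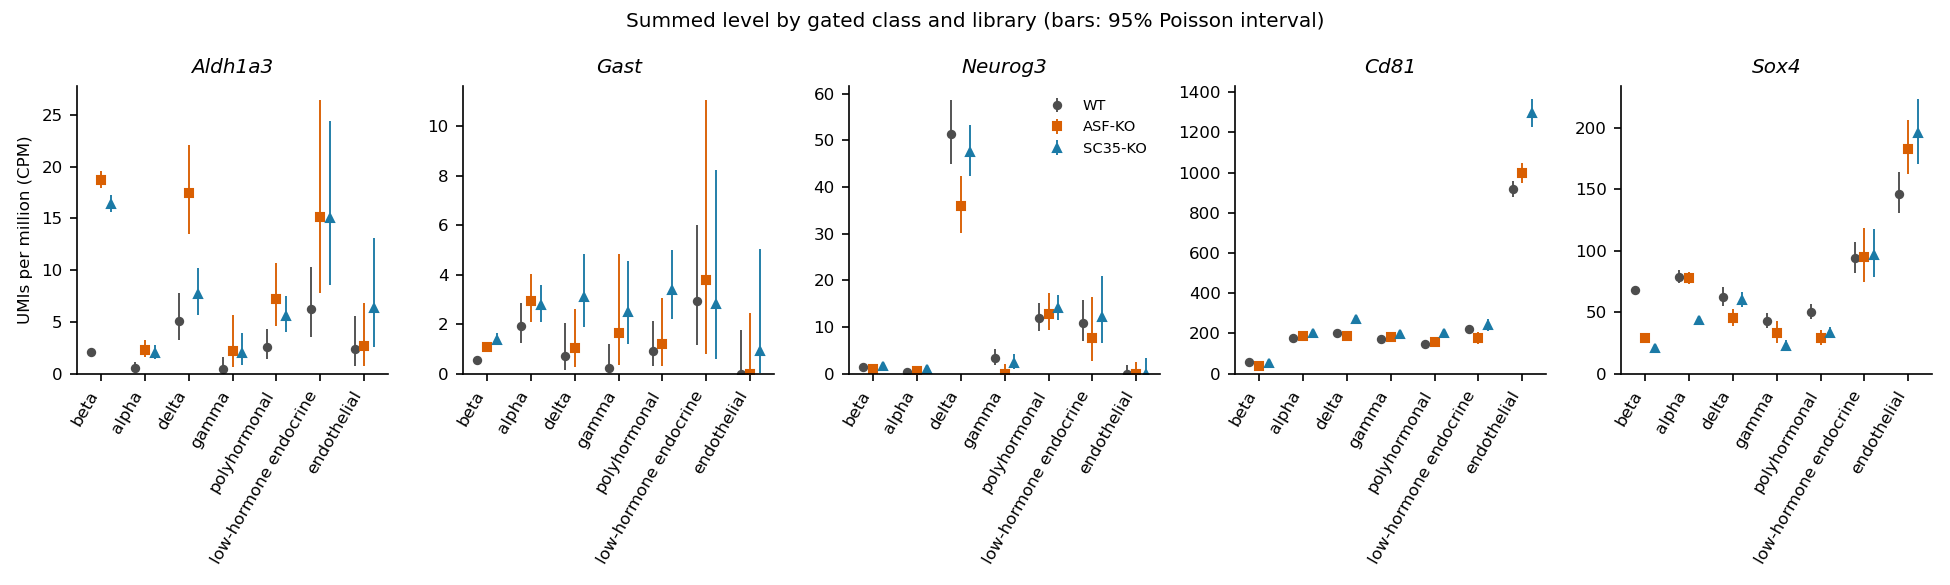
Summed level in CPM (y axis, linear, one scale per gene) of the 5 genes in 7 gated classes (x axis) of the 3 libraries, with 95% Poisson intervals. Aldh1a3 is high in beta-gated and low-hormone endocrine cells of both KO-labelled libraries and in delta-gated cells of the library labelled ASF-KO. Neurog3 is highest in delta-gated cells and Cd81 in endothelial cells in each library.

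Per cell, Aldh1a3 was found in a minority of beta-gated cells in each library. At full depth 3.64% of WT cells, 23.1% of cells under ASF-KO and 18.9% under SC35-KO held at least 1 UMI. With each cell thinned to 8000 UMIs, which left out 395, 116 and 469 shallower cells, the shares were 1.59% (70 of 4390 cells), 11.0% (420 of 3832) and 10.9% (502 of 4595). The KO libraries had nearly equal shares and differed in the tail. At least 2 UMIs were seen in 0.159%, 2.90% and 1.89% of cells, and at least 5 in 1, 8 and 2 cells. The variance over the mean was 1.38 in WT, 2.23 under ASF-KO and 1.37 under SC35-KO, where counting alone gives about 1, and the highest thinned counts were 5, 13 and 5. At full depth the 3 highest cells under ASF-KO held 31, 23 and 21 UMIs with 43.3%, 49.5% and 66.0% insulin, and the highest under SC35-KO held 9. Thinned to 2000 UMIs, 0.400%, 3.69% and 3.05% of beta-gated cells had a UMI, against 0.564%, 0.265% and 1.56% of endothelial cells, whose median depths were 2965, 3359 and 2493.5 UMIs. The WT beta share did not exceed the endothelial one, which rests on 3 cells with a UMI. The summed WT level of beta-gated cells lay above those of alpha-gated and gamma-gated cells, and the part of free RNA in it was not tested.

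**Figure D3:**
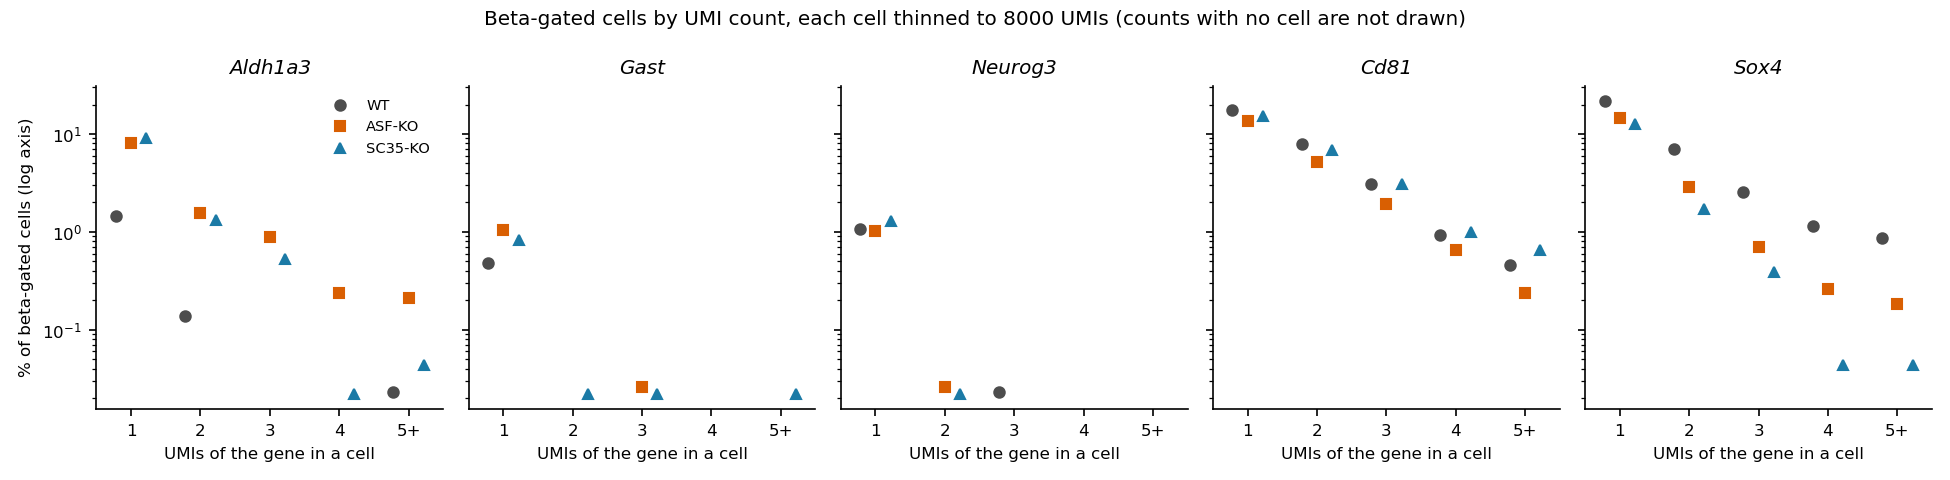
Percent of beta-gated cells (y axis, log scale) with 1, 2, 3, 4 or at least 5 UMIs of each gene (x axis), each cell thinned to 8000 UMIs. For Aldh1a3 both KO-labelled libraries lie above WT at 1 and 2 UMIs, and the library labelled ASF-KO keeps 0.209% of cells at 5 or more; for Sox4 the WT library is highest at each count.

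Beta-gated cells with less insulin held more Aldh1a3. Under ASF-KO the level was 87.9 CPM (73.0 to 104.9) in cells with 30 to 45% insulin, 36.5 CPM at 45 to 55%, 19.9 CPM at 55 to 65% and 12.96 CPM at 65% or more. Under SC35-KO the same bands gave 25.8, 24.7, 18.7 and 12.2 CPM, and in WT 3.25, 2.24, 1.76 and 0.492 CPM. A cell with less insulin has more room for every other transcript, so the levels were also taken per 1000000 UMIs that are not insulin. On that scale Aldh1a3 still differed between bands under ASF-KO (145.6, 75.0, 51.3 and 41.2) and was much flatter under SC35-KO (42.7, 50.9, 47.6 and 39.2). The lowest band under ASF-KO holds 111 cells and 122 UMIs, and without its highest cell the level was 67.0 CPM (54.0 to 82.3). Among the cells with 50 to 60% insulin alone, a band chosen after the data were seen, the ratios to WT were 12.4 and 10.9, so the difference between libraries was present at matched insulin.

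**Figure D4:**
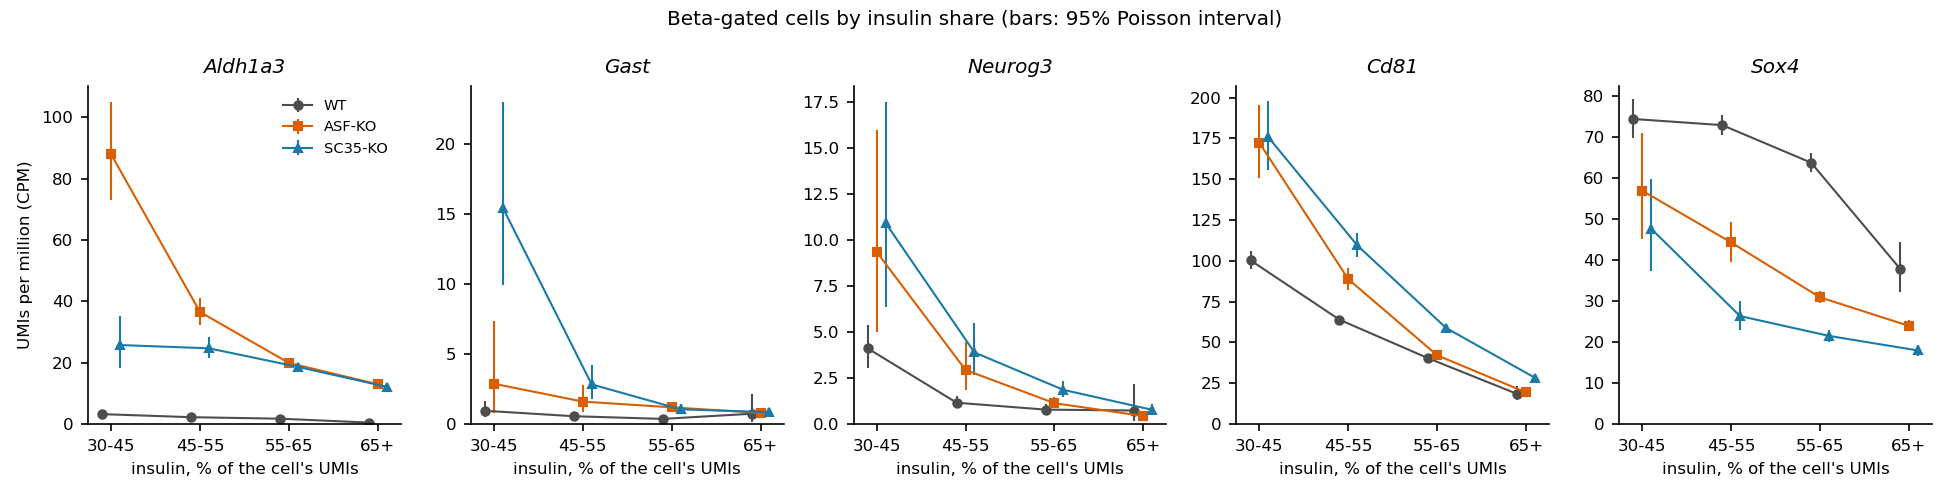
Level of each gene in CPM (y axis) in beta-gated cells split by insulin share of the cell's UMIs (x axis), per library, with 95% Poisson intervals. Aldh1a3 and Cd81 are lower in each higher insulin band of every library, and the Aldh1a3 level of 87.9 under ASF-KO in the lowest band is the highest of the panel; Sox4 is higher in WT than in both KO-labelled libraries in each band.

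Aldh1a3 and the beta cell programme were set against each other cell by cell, at 8000 UMIs per cell and within each library. Mafa, a transcription factor of mature beta cells, had the lowest ratio of 18 beta markers in both KO libraries. Its mean was 1.13 UMIs in cells with Aldh1a3 and 1.89 in cells without in WT, 1.21 and 1.81 under ASF-KO, and 0.904 and 1.24 under SC35-KO, giving ratios of 0.596 (0.471 to 0.743), 0.668 (0.609 to 0.731) and 0.732 (0.664 to 0.806). The gap was wider in cells with at least 2 Aldh1a3 UMIs, where Mafa averaged 0.571, 0.820 and 0.506 UMIs in 7, 111 and 87 cells.

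Other beta markers did not move as one. Iapp, the amylin gene, was higher in cells with Aldh1a3 in all 3 libraries, with ratios of 1.12, 1.07 and 1.12. The glucose transporter gene Slc2a2 had ratios of 0.736 (0.623 to 0.864), 0.848 (0.766 to 0.936) and 0.935 (0.865 to 1.01), the last with an interval that holds 1. The zinc transporter gene Slc30a8 was lower in each library (0.821, 0.859 and 0.914), as was Ero1lb, an endoplasmic reticulum oxidase gene (0.785, 0.932 and 0.935). Ucn3, a late maturity marker, gave 0.983 and 0.940 with intervals that hold 1 in WT and under ASF-KO, and 1.13 (1.05 to 1.23) under SC35-KO. Neurod1 was lower only under SC35-KO by its interval, with a ratio of 0.7996 (0.717 to 0.889), and the difference between libraries was not tested. Of 18 beta markers, the interval lay above 1 for 3, 3 and 2 and below 1 for 8, 8 and 6 in the WT, ASF-KO and SC35-KO libraries. The share of all genes with such intervals was not taken, so nothing is read from these counts. Median insulin was 50.6% with and 53.3% without Aldh1a3 in WT, 62.0% and 63.7% under ASF-KO, and 62.2% and 63.7% under SC35-KO. Cells with Aldh1a3 held 1.06, 1.06 and 1.04 times as many UMIs outside insulin. By itself this would place ratios of genes other than insulin slightly above 1, and it places summed insulin below 1 by construction.

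**Figure D5:**
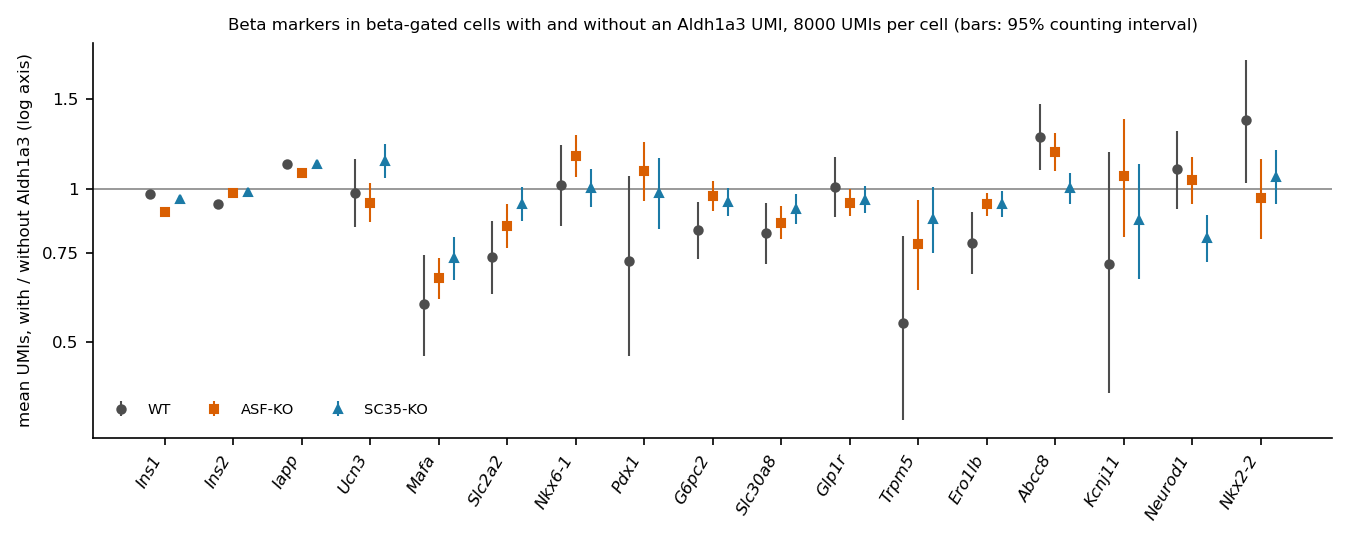
Ratio of mean UMIs per cell in beta-gated cells with an Aldh1a3 UMI to cells without one (y axis, log scale) for the beta markers shown by name (x axis) in each library, each cell thinned to 8000 UMIs, with 95% counting intervals. Mafa lies below 1 in all 3 libraries (0.596, 0.668 and 0.732) and Iapp above 1.

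Of 22 genes listed for retinal and retinoic acid handling beside Aldh1a3, 3 reached 10 CPM in a beta sum, and the others were not assessed. Under ASF-KO none of these was called higher, against 9% of all genes, and 1 was called lower, against 8.08%. This was Rxra, a retinoid X receptor, at 4.34 against 11.97 CPM in WT, and it counted as measured through WT alone. Under SC35-KO, where Rxra stood at 7.99 CPM, none was called either way, against 3.49% of all genes higher and 2.59% lower. Rxrb, a second such receptor, stood at 14.8, 9.25 and 10.7 CPM, and Rbp4, the retinol carrier, at 31.1, 29.4 and 30.7 CPM in WT, ASF-KO and SC35-KO. The median of the 3 relative to the median gene was -0.26 and -0.03 on the log2 scale, where all measured genes have a median of 0. The sister enzymes Aldh1a1 and Aldh1a2, named here after their values were seen, had 21, 2 and 2 UMIs and 2, 2 and 2 UMIs in beta-gated cells of the 3 libraries.

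Gast (ENSMUSG00000017165, chr11:100334407-100336996, plus strand) was rare in every class. In beta-gated cells it was at 0.537 CPM in WT (0.409 to 0.693, 59 UMIs), 1.06 CPM under ASF-KO (0.880 to 1.27, 118 UMIs) and 1.37 CPM under SC35-KO (1.14 to 1.63, 126 UMIs). The WT library was low and the KO libraries overlapped with each other. The ratios to WT were 1.98 (1.44 to 2.75) and 2.55 (1.86 to 3.53), or 2.65 and 3.44 relative to the median gene. One SC35-KO beta-gated cell with 16 Gast UMIs, 15220 UMIs in all and 36.4% insulin held more than any other cell, and without it the library stood at 1.20 CPM (0.982 to 1.44). At 8000 UMIs per cell 0.478%, 1.07% and 0.892% of beta-gated cells had a Gast UMI. Alpha-gated cells held 1.92, 2.92 and 2.76 CPM, more than beta-gated cells in each library, and endothelial cells held 0, 0 and 1 UMI. In the library labelled SC35-KO, the 41 cells with a Gast UMI had 3.32 times the Aldh1a3 (1.95 to 5.29) of cells without. They had 0.324 times the Mafa (0.185 to 0.526). The Aldh1a3 ratios of cells with Gast in WT and under ASF-KO are not reported here. The Mafa ratios of cells with Gast were 1.01 (0.722 to 1.38) in WT and 0.739 (0.553 to 0.967) under ASF-KO, on 21 and 41 such cells. Cells with Gast also differed in gamma markers, which summed to 1017.9, 3804.9 and 6841.5 CPM against 2164.9, 1685.0 and 2016.2 CPM in cells without, in WT, ASF-KO and SC35-KO. The part of gamma RNA in these ratios was not tested.

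Gastrin is cut from its precursor by prohormone convertases and then amidated and sulfated. Of 10 genes for gastrin relatives, receptors and these steps, 7 were measured in beta-gated cells. Pcsk1, which encodes prohormone convertase 1/3, stood at 124.5 CPM in WT, 228.5 under ASF-KO, where it was the 1 gene called higher, and 118.9 under SC35-KO. Pcsk2, the second convertase, stood at 2905.3, 2379.7 and 1392.1 CPM and was the 1 gene called lower under SC35-KO. Pam, the amidating enzyme, stood at 234.2, 206.3 and 282.0 CPM and was called higher under SC35-KO only. The list medians relative to the median gene were 0.24 and 0.33 (log2). Of all genes, 9% were called higher and 8.08% lower under ASF-KO, and 3.49% and 2.59% under SC35-KO. The related hormone gene Cck, named after its values were seen, had 2, 11 and 45 UMIs in the beta-gated cells of the 3 libraries.

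Neurog3 (ENSMUSG00000044312, chr10:62133090-62134763, plus strand) marked delta-gated cells in all 3 libraries. It lies inside Fam241b, a gene on the opposite strand. The 250 bases before its start are shown because its delta interval stood apart from every other class of at least 50 cells in each library. Capitals mark letters that match an E-box (CANNTG) or a CCAAT box on either strand; TATAAA was also searched and has no match. The sequence is from RefSeq on GRCm38.p6, chr10:62132840-62133089, plus strand.
Neurog3: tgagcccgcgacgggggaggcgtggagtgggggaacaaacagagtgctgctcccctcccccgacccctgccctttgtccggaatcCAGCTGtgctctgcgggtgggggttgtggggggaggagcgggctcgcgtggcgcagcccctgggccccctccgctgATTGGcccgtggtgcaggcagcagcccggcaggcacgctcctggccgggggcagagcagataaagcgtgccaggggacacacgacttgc
It holds 1 E-box and 1 CCAAT box. Of 32851 promoter windows of this length, 66.2% hold an E-box, 33.9% a CCAAT box and 12.4% a TATAAA. A match is a description of the letters and not a binding site. RefSeq windows were matched for 4 of the 5 genes; Aldh1a3 is named only.

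Delta-gated cells held Neurog3 at 51.5 CPM in WT (44.9 to 58.7, 221 UMIs), 35.9 CPM under ASF-KO (30.2 to 42.3, 140 UMIs) and 47.6 CPM under SC35-KO (42.3 to 53.4, 292 UMIs). Each of these intervals lay above those of every other class with at least 50 cells in its library. The ratio to WT in delta-gated cells was 0.697 (0.560 to 0.865) under ASF-KO and 0.925 (0.774 to 1.11) under SC35-KO. At full depth a Neurog3 UMI was found in 29.1%, 23.4% and 22.0% of delta-gated cells, with at most 5 UMIs in a cell and medians of 7743, 7781 and 5383 UMIs per cell. With each cell thinned to 2000 UMIs the shares were 8.79%, 6.94% and 10.5%, so SC35-KO went from the lowest share to the highest, with intervals that overlap between all 3 libraries. No Neurog3 UMI was found in 640, 425 and 380 endothelial cells. Cells that passed both the somatostatin and the pancreatic polypeptide gates held similar levels, at 40.6, 34.6 and 39.2 CPM, while gamma-gated cells held 3.25, 0 and 2.23 CPM. At 2000 UMIs per cell, delta-gated cells with a Neurog3 UMI had 0.977 (0.960 to 0.994), 0.852 (0.835 to 0.869) and 0.999 (0.988 to 1.01) times the Sst of those without. These ratios rest on 48, 34 and 113 cells with Neurog3, and their intervals leave out the spread between cells. Pax4, another gene of endocrine progenitors, had no UMI in either at that depth.

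In beta-gated cells Neurog3 was rare: 1.34 CPM in WT (1.13 to 1.57, 147 UMIs), 1.04 CPM under ASF-KO (0.863 to 1.25) and 1.72 CPM under SC35-KO (1.46 to 2.01). The ASF-KO and SC35-KO libraries did not overlap and WT lay between them. The ratios to WT were 0.780 (0.606 to 1.002) and 1.28 (1.02 to 1.62), or 1.05 and 1.73 relative to the median gene, so the direction under ASF-KO turns with the scaling. At 50 to 60% insulin they were 2.16 and 2.66, so the ASF-KO ratio turned from below to above 1 at matched insulin. Beta-gated cells with a Neurog3 UMI at 8000 UMIs, 48, 40 and 60 in number, had 0.562, 0.571 and 0.650 times the Mafa of the others. Their median insulin was 46.6%, 58.5% and 59.3%, against 53.3%, 63.6% and 63.5%. They also held more RNA of the neighbouring classes. The 6 delta markers summed to 2731.8, 4034.4 and 2197.9 CPM in cells with Neurog3 and to 499.8, 563.2 and 545.0 CPM in cells without, and the 4 gamma markers to 11125.0, 10403.1 and 6922.9 CPM against 2060.3, 1615.9 and 1994.9 CPM. The part of that RNA in the beta values of Neurog3 was not tested.

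Of 24 genes of the endocrine progenitor programme, 8 were measured in beta-gated cells. None was called under ASF-KO, against 9% of all genes higher and 8.08% lower, with a median of -0.24 relative to the median gene (log2). Under SC35-KO 1 was called higher, against 3.49% of all genes, and none lower, against 2.59%, and the median was 0.09. The 1 was Insm1, a zinc finger factor of endocrine progenitors, at 92.8 against 79.6 CPM in WT. Neurod1, a direct target of Neurog3, stood lowest in both comparisons, at 211.4 CPM in WT, 108.1 under ASF-KO and 112.2 under SC35-KO. Isl1 stood highest under ASF-KO, at 81.7 against 105.5 CPM.

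Sox4 (ENSMUSG00000076431, chr13:28948919-28953713, minus strand) was lower in beta-gated cells of both KO libraries. It overlaps a long noncoding RNA gene on the opposite strand that is not among the counted features. Its promoter window is shown because of its 4 CCAAT boxes, a number reached by 0.840% of the windows. Capitals mark these and 1 E-box, and the coordinates are chr13:28953700-28953949, minus strand, GRCm38.p6.
Sox4: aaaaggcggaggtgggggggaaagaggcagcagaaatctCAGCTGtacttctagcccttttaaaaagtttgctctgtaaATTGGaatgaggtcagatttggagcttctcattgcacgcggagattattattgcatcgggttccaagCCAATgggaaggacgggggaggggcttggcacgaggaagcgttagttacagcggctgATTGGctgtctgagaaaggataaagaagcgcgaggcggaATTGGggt
The last bases of the window lie inside the gene as GENCODE draws it. The longer stress element formed by a CCAAT box followed at a fixed distance by CCACG was searched as well. It has no match in any of the 4 windows and is held by 0.113% of all windows.

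The Sox4 level in beta-gated cells was 68.2 CPM in WT (66.6 to 69.7, 7486 UMIs), 29.0 CPM under ASF-KO (28.0 to 29.99, 3218 UMIs) and 20.8 CPM under SC35-KO (19.9 to 21.8, 1915 UMIs). The 3 libraries did not overlap, with WT high and SC35-KO lowest. The ratios to WT were 0.425 (0.408 to 0.443) and 0.305 (0.290 to 0.321), or 0.570 and 0.412 relative to the median gene. Only 3.65% and 0.414% of measured genes had a lower ratio. At 8000 UMIs per cell 33.4%, 18.5% and 14.7% of beta-gated cells had a Sox4 UMI and 11.5%, 3.99% and 2.18% had at least 2.

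The lower Sox4 was not shared by every class. In alpha-gated cells it stood at 78.9, 77.8 and 43.7 CPM, so that the library labelled ASF-KO was at the WT level (ratio 0.985, 0.902 to 1.08) and SC35-KO was lower (0.554, 0.505 to 0.607). In delta-gated cells the levels were 62.6, 45.6 and 59.8 CPM, and in endothelial cells 146.4, 183.2 and 195.9 CPM, where both KO libraries were above WT. Ductal cells held 532.7 CPM in WT and 577.3 CPM under SC35-KO, the highest of the classes with at least 30 cells. In WT, where the order of the endocrine classes was gamma, delta, beta and alpha, the delta and beta intervals overlapped. Under SC35-KO beta-gated and gamma-gated cells (22.6 CPM, 18.2 to 27.7) overlapped at the low end.

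Cells with Sox4 held more, not less, Mafa. Cells with a Sox4 UMI had 1.153 (1.102 to 1.206), 1.098 (1.03 to 1.17) and 1.17 (1.09 to 1.26) times the Mafa of cells without, in WT, ASF-KO and SC35-KO. Of 18 beta markers the interval lay above 1 for 10, 5 and 7 and below 1 for 2, 3 and 3. Nothing is read from these counts either, as the share of all genes was not taken. Cells with Sox4 held 1.012, 1.035 and 1.058 times as many UMIs outside insulin, which would by itself place ratios slightly above 1. The 2 markers below 1 in all 3 libraries were Ins2 (0.983, 0.982 and 0.971) and Iapp (0.960, 0.964 and 0.961). On the scale without insulin UMIs, WT Sox4 was 126.1, 148.1, 155.7 and 115.0 over the 4 insulin bands, with no steady order. Of 7 genes listed with Sox4, 2 were measured: Stxbp6, which encodes an inhibitor of exocytosis reported as a Sox4 target, at 22.7, 24.0 and 26.9 CPM, and the related factor Sox12 at 10.4, 7.25 and 10.8 CPM. Stxbp6 was called higher under SC35-KO, with a ratio of 1.18 (1.12 to 1.25), where the median gene is at 0.740, and was not called under ASF-KO. Of all genes, 3.49% were called higher under SC35-KO and 9% under ASF-KO.

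Cd81 (ENSMUSG00000037706, chr7:143052739-143067934, plus strand) was lowest in beta-gated cells among the endocrine classes. Beta-gated cells held 57.1 CPM in WT (55.7 to 58.6, 6274 UMIs), 36.6 CPM under ASF-KO (35.5 to 37.7, 4063 UMIs) and 51.8 CPM under SC35-KO (50.4 to 53.3, 4772 UMIs). Alpha-gated cells held 175.0, 187.2 and 204.4 CPM, delta-gated cells 200.5, 184.9 and 271.1 CPM, and endothelial cells 918.7, 998.2 and 1295.8 CPM. The beta ratios to WT were 0.640 (0.616 to 0.666) and 0.907 (0.874 to 0.942), both below 1 as measured, while relative to the median gene they were 0.859 and 1.23, so the direction under SC35-KO turns with the scaling, and neither was called. The direction under ASF-KO turned when cells of 50 to 60% insulin were compared, where the ratios were 1.22 and 1.45.

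Cd81 differed more between insulin bands of a library than between libraries at a given band. From the band of 30 to 45% insulin to that of 65% or more it stood at 100.3, 63.9, 40.3 and 18.5 CPM in WT, at 172.2, 88.7, 42.1 and 19.4 CPM under ASF-KO, and at 175.7, 109.5, 58.9 and 28.3 CPM under SC35-KO. On the scale without insulin UMIs the same order held, from 170.1 to 56.0 in WT, 285.3 to 61.7 under ASF-KO and 291.7 to 91.5 under SC35-KO. In beta-gated cells the 10 endothelial markers summed to 21.6, 7.77 and 7.19 CPM and none reached 10 CPM. Cells with a Cd81 UMI held more delta markers (875.3, 1214.0 and 840.9 CPM) than cells without (373.7, 431.3 and 464.7 CPM). Their gamma markers were also higher, at 3611.6, 4307.6 and 3672.9 CPM against 1537.1, 996.6 and 1459.6 CPM. The part of other cells' RNA in the Cd81 values was not tested.

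Cells with a Cd81 UMI had 0.673 (0.639 to 0.709), 0.704 (0.658 to 0.751) and 0.658 (0.615 to 0.704) times the Mafa of cells without, and 0.635, 0.569 and 0.601 times the Trpm5, a channel gene of glucose-responsive beta cells. They had 1.08, 1.06 and 1.11 times the Iapp. Cells with Cd81 also held 1.069, 1.13 and 1.114 times as many UMIs outside insulin, which would by itself place ratios of genes other than insulin above 1. Under ASF-KO, Aldh1a3 and Cd81 were found together: cells with Aldh1a3 held 0.576 Cd81 UMIs and cells without 0.305, a ratio of 1.89 (1.64 to 2.18). The ratios were 1.23 (0.884 to 1.67) in WT and 1.08 (0.943 to 1.24) under SC35-KO, and the difference between libraries was not tested. Among all genes, 9% were called higher and 8.08% lower under ASF-KO, and 3.49% and 2.59% under SC35-KO. Of 13 tetraspanins and partners, 5 were measured and none was called in either comparison, with medians of -0.25 and -0.00081 (log2) relative to the median gene. The lowest was Igsf8, a Cd81 partner, at 15.6, 8.44 and 8.87 CPM, and the highest were Cd63 under ASF-KO, at 351.4 against 441.7 CPM, and Cd82 under SC35-KO, at 10.6 against 11.3 CPM.

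All 18 genes listed for beta cell maturity were measured in the same cells. Under ASF-KO 2 were called higher, against 9% of all genes, among them Ins2 (482677.9 against 394798.3 CPM), and 3 were called lower, against 8.08%, Slc2a2 (148.1 against 367.0 CPM), Kcnj11 (16.7 against 35.1 CPM) and Trpm5 (39.8 against 81.0 CPM), with a list median of -0.34 (log2) relative to the median gene. Kcnj11 encodes the pore of the ATP-sensitive potassium channel. Under SC35-KO 3 were called higher, Ins1, Ins2 and Iapp, against 3.49% of all genes, and none lower, against 2.59%, with a median of -0.07. The lowest was Ucn3, at 158.5 against 313.9 CPM. Insulin sets the gate of these cells, and its larger share in both KO libraries lowers the median gene. The insulin calls relative to that gene are therefore built in to a degree in both comparisons. As measured, Ins2 stood at 466701.4 CPM under SC35-KO against 394798.3 in WT, and Iapp at 53402.7 against 45183.4. Mafa, whose level differed between cells with and without Aldh1a3, was at 234.1 CPM in WT, 216.9 under ASF-KO and 148.9 under SC35-KO. Of 12 other genes reported in immature or dedifferentiated beta cells, Gc, the vitamin D binding protein gene, was measured in both comparisons and called higher in both, at 40.7, 54.5 and 46.6 CPM. Serpina7, the thyroxine carrier gene, reached 10 CPM only under SC35-KO, at 13.8 against 4.35 CPM in WT, and was called higher there, with 9.37 CPM under ASF-KO.

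Genes with the most similar pattern were ranked by the Pearson correlation of log2(CPM + 1) over the 26 class and library sums with at least 50 cells. The sums share libraries, so the values are descriptions. For Aldh1a3 these were P2ry1 (0.84), Cabp1, Tmem65, Tnfrsf11b and Pdyn (0.74), the weakest set of the 5 genes. For Neurog3 they were Ankrd34b (0.91), Kcnd2, Ptprz1, Lingo1 and Cdr1os (0.89). Cd81 was closest to Rsu1 (0.96), Card19, Mef2a, Pgap2 and Zfand5 (0.91), and Sox4 to Ipmk (0.92), Nck2, Adgra3, Zdhhc5 and Etfbkmt (0.90). For Gast they included Pex7 (0.86), Syt9, Sox12 and Golt1b (0.84), although Gast itself did not reach 10 CPM in any of the 26 sums.

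Markers of other cells, depth and cell quality were measured beside the Aldh1a3 result. In beta-gated cells the summed acinar markers stood at 474.8, 259.0 and 56.8 CPM and the ductal markers at 29.7, 43.5 and 47.4 CPM in the WT, ASF-KO and SC35-KO libraries. The alpha markers stood at 2611.9, 2208.7 and 2107.7 CPM. Of 11 myeloid, 10 T or NK and 8 mural markers, 1, none and none reached 10 CPM. Within libraries the delta markers of cells with 0, 1 and at least 2 Aldh1a3 UMIs summed to 525.6, 450.4 and 303.6 CPM in WT, 583.3, 813.5 and 497.7 CPM under ASF-KO, and 572.9, 588.6 and 165.2 CPM under SC35-KO. The delta sum was lowest in cells with at least 2 Aldh1a3 UMIs in each library, on 7 such cells in WT. Other lists went the opposite way. Myeloid markers in the same order summed to 42.5, 47.6 and 89.3 CPM, then 35.9, 39.6 and 56.3 CPM, and then 50.1, 53.9 and 61.8 CPM, and B cell markers to 43.4, 45.6 and 178.6 CPM, then 12.1, 16.2 and 23.6 CPM, and then 17.2, 21.1 and 33.0 CPM. Both were higher with more Aldh1a3 in every library. Gamma markers summed to 3394.6, 1929.2 and 1879.5 CPM in cells with Aldh1a3 and to 2139.4, 1680.4 and 2081.3 CPM in cells without, in WT, ASF-KO and SC35-KO. The part of these markers in the Aldh1a3 result was not tested. Median mitochondrial shares in the same order were 3.08%, 2.71% and 2.46%, then 2.77%, 2.74% and 2.92%, and then 2.44%, 2.53% and 2.54%.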

How the data were processed

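The authors deposited 1 matrix of UMI counts per gene and barcode for each library, as whole numbers with no normalization. Libraries were made with the Chromium Single Cell 3' v3 kit, per the labels' protocols. Cell Ranger 5.0.0, STAR, Seurat and mm10 are named in the submitters' processing notes, with no role given. The 5 genes, the gene lists, the gates and the naming rules were chosen with earlier results of these data known.

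A barcode was kept when it had 500 or more genes, 1000 or more UMIs and a mitochondrial share no higher than 20%. Doublets called by Scrublet (in scanpy 1.11.5) at its automatic threshold in each library, 339 in WT, 269 under ASF-KO and 898 under SC35-KO, were removed. Hormone gates were 30% of UMIs for insulin and 5% for Gcg, Sst and Ppy. Other classes needed at least 3 markers, 0.5% of UMIs and 2 times the share of any other list, and acinar cells 10%. Endocrine cells under every hormone gate needed 5 of 8 granin and processing genes. As set out, the acinar list was to be among those compared; it was left out of that comparison because acinar RNA occurred in all classes. Ero1b of the maturity list is listed under its older symbol Ero1lb. Cells near the insulin gate were few: 46, 21 and 24 cells had 25 to 30% insulin, and 76, 25 and 37 had 30 to 35%.

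UMIs were summed per class and library and scaled to CPM. Sums carry exact Poisson intervals, shares exact Clopper-Pearson intervals and ratios exact conditional binomial intervals, at 95%, and all cover counting error only. A gene counts as measured at 10 CPM in at least 1 of the 2 sums, and is called at 1.5-fold from the median such gene. With 1 library per group no test was run and no p-value is given. Shares were compared after thinning cells to 2000 or 8000 UMIs. The genes named are the 5, up to 4 with the highest and lowest ratio of each list, and the 5 closest by correlation, with a pseudocount of 1 CPM; genes named outside this rule are marked as such. Single genes that fall under the rule but are not named are not reported here. Intervals and calls were run on simulated counts drawn from the WT beta profile, for genes at 10 CPM or more in WT. The draw follows the counting model that the intervals assume. It is therefore a check of the code only, and none on spread between cells or on genes below 10 CPM in WT, such as Aldh1a3. Gene positions are from GENCODE M21 (GRCm38). Software: matplotlib 3.10.9, pandas 2.3.3, scipy 1.17.1 and leidenalg 0.10.2 under python 3.11.15. Alternatives changed the scaling, the cell filter, the doublet step, the gates, the averaging and the way classes were made.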

Additional observations from a re-analysis of the deposited data

Results flagged for a closer look

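Aldh1a3 was also present in data outside the classes. Kept cells that fell in no class, 325 in WT, 186 under ASF-KO and 147 under SC35-KO, held it at 22.46, 26.14 and 28.02 CPM, on 23, 9 and 8 UMIs and above the limit that a count of 0 allows. In WT 12 of the 23 UMIs came from 1 cell, without which the level was 10.8 CPM (5.38 to 19.3). Barcodes removed by the filter held Aldh1a3 at 10.97 CPM under ASF-KO (8.22 to 14.4, 53 UMIs) and at 21.43 CPM under SC35-KO (15.9 to 28.3, 49 UMIs), against 1.92 CPM in WT (0.233 to 6.95, 2 UMIs). These removed barcodes also held Ins2 at 102871.8 CPM in WT, 262334.4 under ASF-KO and 152270.9 under SC35-KO. What kind of cell these barcodes represent was not tested.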

How the results depend on the processing

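With 1 library per genotype, differences between animals, captures and preparations cannot be told apart from genotype, and every interval covers counting error only. The higher Aldh1a3 of beta-gated cells kept its direction and stayed past 1.5-fold of the median gene in 12 of 12 alternatives in both comparisons, with ratios to WT of 8.70 to 12.4 under ASF-KO and 7.43 to 10.95 under SC35-KO. Scaling without hormone and mitochondrial genes gave 11.8 and 10.54, median-of-ratios scaling gave 11.47 and 10.36, and beta-gated cells with 50 to 60% insulin, an alternative chosen after seeing the data, gave 12.43 and 10.95. Both scalings bring the median gene near its WT level, which by construction raises every ratio to WT. Neither scaling can change a value relative to the median gene. Those alternatives are therefore no check on the 1.5-fold calls counted here. Sox4 stayed past 1.5-fold lower and Gast past 1.5-fold higher relative to the median gene in 12 of 12, and Neurog3 under SC35-KO past 1.5-fold higher in 12 of 12. The number of the 5 genes called higher was 2 under ASF-KO and 3 under SC35-KO, and 3 and 4 at 50 to 60% insulin. Without the filter on low values, genes with few UMIs enter the lists. Under ASF-KO the other dedifferentiation genes went from 0.84 (log2), the value of 1 gene, to a median of -0.63 over 11. Under SC35-KO the same list kept its sign, from 1.365 on 2 genes to 0.63 on 11. The Sox genes under ASF-KO went from 0.20 on 2 genes to -0.59 on 7. The progenitor genes under SC35-KO went from 0.09 on 8 genes to -0.13 on 22. Shares of cells with a UMI depend on depth by construction. Of 13797 beta-gated cells, 96.2% fell in clusters in which most cells were beta-gated. The clusters were made without the gates but were picked by them, so part of this overlap is built in. No paired analysis was possible because each group has 1 library.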
